A study of Mus musculus with 8 samples.

Results

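AP1 and immediate early transcription factors (TFs) were followed as 10 genes, taken by their symbols from the 23432 genes counted in each library. They were the Fos family (Fos, Fosb, Fosl1 and Fosl2), the Jun family (Jun, Junb and Jund), Atf3, the small Maf factor Maff and the zinc finger factor Egr1. All 10 were counted in all 8 libraries and passed the filter on low counts in every comparison.

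The data were bulk RNA-seq counts from mouse skin epithelium, with 2 libraries in each of 4 groups. At E16.5, K14-H2BGFP+ cells, in which the Krt14 promoter drives a GFP-tagged histone, were isolated from back skin by collagenase and trypsin digestion and FACS, from control embryos and from MOF cKO embryos (MOFfl/fl/K14Cre). At P0.5, epidermis was peeled off after dispase treatment and lysed directly on TRIzol, without sorting, from control pups and from Kansl1 cKO pups (Kansl1fl/fl/K14Cre). MOF, the product of Kat8, is a histone H4 lysine acetyltransferase, and KANSL1 is a scaffold of the NSL complex that holds MOF. In both models the Cre is driven by the Krt14 promoter, so the deletion is directed to keratin 14 epithelium. The labels call the other groups only control. The study used littermates as controls and describes those of MOF cKO mice as wildtype or heterozygous, but the genotype of each control library is not given in the sources used here. The study names 2 pairs of samples for each experiment. In each control group the 2 libraries differed in sex, as Xist shows below, so they came from different animals. For the cKO groups this is not given in the sources used here. The p-values measure the spread between libraries.

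AP1 is a dimer of a Jun family protein with a Fos, Jun or ATF family protein, held together by a leucine zipper and bound to DNA through the basic region beside it, together called bZIP. Several of its genes, though not all, and Egr1 belong to the immediate early genes. These are transcribed within minutes of growth factor, wounding or stress signals through MAP kinases, serum response factor and CREB. They need no new protein synthesis, and their mRNAs are short-lived. In the epidermis AP1 factors are known for their part in keratinocyte proliferation, in the genes of terminal differentiation and in the response to injury. Tissue digestion is also known to induce immediate early genes in many tissues.

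The counts on genes ranged from 22484018 to 27561688 in the E16.5 libraries and from 9108709 to 19774643 in the P0.5 libraries, so that 1 count stood for 0.030 to 0.122 CPM (counts scaled to a common library size with TMM factors over all 8 libraries). The 14 epithelial markers were detected in every group, with a summed level of 40320 to 51450 CPM at E16.5 and 67860 to 102300 CPM at P0.5. Both targeted genes had counts in every library, and a count over the whole gene does not check the deletion. Kat8 had 13.3 and 13.6 CPM in E16.5 control and 11.5 and 12.8 CPM in MOF cKO, and Kansl1 had 43.4 and 51.8 CPM in P0.5 control and 34.6 and 33.4 CPM in Kansl1 cKO. E16.5 control replicate 1 stood apart by Xist, the X inactivation transcript of female cells, at 1394 CPM against 9.21 to 11.1 CPM in the other E16.5 libraries, and P0.5 control replicate 2 by Xist at 1.32 CPM against 407.9 to 462 CPM, so sex was not matched. Results without either library are given beside those that change.

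Promoters in the RefSeq table (build GRCm38.p6, 250 bases before to 50 after each start) covered 8 of the 10 genes in 10 windows. The 150 bases before the start are shown for Fosb, Atf3, Fos, Jun and Junb, the 5 genes in that table whose levels differed most between the control groups. Capitals mark TGACG, which is the core of the cAMP response element bound by CREB and ATF factors, or its reverse complement CGTCA. The motif was chosen after the windows had been looked at.
Fosb, chr7:19310046-19310195, minus strand: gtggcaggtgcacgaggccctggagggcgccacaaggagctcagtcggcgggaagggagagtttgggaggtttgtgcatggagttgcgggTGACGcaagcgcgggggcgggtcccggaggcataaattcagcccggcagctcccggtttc
Atf3, chr1:191183334-191183483, minus strand: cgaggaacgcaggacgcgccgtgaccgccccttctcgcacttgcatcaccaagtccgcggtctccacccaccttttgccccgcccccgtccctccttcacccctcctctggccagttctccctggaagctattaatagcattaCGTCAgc
Fos, chr12:85473740-85473889, plus strand: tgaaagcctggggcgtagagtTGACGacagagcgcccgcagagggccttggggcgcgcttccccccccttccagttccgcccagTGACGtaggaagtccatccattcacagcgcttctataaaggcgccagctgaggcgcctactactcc
Jun, chr4:95052223-95052372, minus strand: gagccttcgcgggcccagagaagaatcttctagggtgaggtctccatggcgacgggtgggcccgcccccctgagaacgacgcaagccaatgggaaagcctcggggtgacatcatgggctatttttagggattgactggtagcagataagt
Junb, chr8:84978749-84978898, minus strand: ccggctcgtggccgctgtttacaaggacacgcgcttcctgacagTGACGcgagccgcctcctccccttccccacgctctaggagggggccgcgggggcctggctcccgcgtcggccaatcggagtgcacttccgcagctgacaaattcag
On either strand TGACG stood in 6 of the 10 windows, belonging to 5 genes (Atf3, Fos, Fosb, Junb and Maff), against 20.8% of all 32851 windows in the table. Fos held it at 2 places, and the Jun window shown held none. The complete element TGACGTCA, which contains TGACG, was found in a Maff window alone among the 10 genes and in 1.79% of all windows. The EGR motif GCGNGGGCG was present for Fosb, Fosl2 and Maff and in 5.55% of all windows. The AP1 element TGANTCA and the CArG box bound by serum response factor stood in 0 of the 10 windows, against 7.81% and 1.63% of all windows. Sites beyond the windows and near matches to these patterns were not searched, and Egr1 and Fosl1 had no window. The promoters were thus not shown to lack such elements.

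Of the genes not shown, Fosl1 lies at chr19:5447547-5455946 and Fosl2 at chr5:32135801-32157842, Jund at chr8:70698949-70700616 and Maff at chr15:79346621-79359076, all on the plus strand of GRCm38 (mm10) in GENCODE M21. Jun and Jund each formed 1 exon block without introns. Junb overlaps Prdx2, Fosl1 overlaps Ccdc85b, and Jun, Jund and Atf3 overlap the non-coding genes Junos, Gm11175 and Gm24748, all on the opposite strand. The library kit keeps strand, but the strand setting of the counting is not given in the sources used here, so reads of these pairs may not be told apart. The 7-base AU-rich element TATTTAT, which marks many short-lived mRNAs, occurred in the longest coding transcript of 8 of the 10 genes (all but Junb and Egr1), against 32.5% of 19347 coding genes.

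The 10 genes took 0.698% to 0.878% of all gene counts in the E16.5 libraries and 0.0617% to 0.0831% in the P0.5 libraries. Levels between genes were compared per kilobase of exon. In E16.5 control, Egr1 had the highest level at 560 ± 90.7 CPM per kb (SD, n = 2), followed by Fos at 486 ± 76.0 CPM per kb, and the libraries of this pair overlapped. Jun (340 ± 59.8 CPM per kb) and Junb (287 ± 62.3 CPM per kb) came next and overlapped each other. Atf3, Jund, Fosb and Fosl2 followed at 159, 75.2, 54.0 and 28.0 CPM per kb without overlap between neighbours. Fosl1 and Maff were lowest at 13.4 and 12.5 CPM per kb, and they overlapped. The order in MOF cKO had the same genes in each place, with Egr1 at 875 ± 48.1 CPM per kb, Fos at 741 ± 42.0 CPM per kb and no overlap between them, while Fosl2, Fosl1 and Maff at the end overlapped from each to the next.

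The order was different in P0.5 epidermis. In P0.5 control, Jund led at 59.0 ± 0.366 CPM per kb, ahead of Junb (47.5 ± 0.497), Jun (43.5 ± 2.45) and Fos (39.1 ± 1.88 CPM per kb), with no overlap between neighbours. Fosl2 followed at 16.3 CPM per kb. Egr1, the leading gene at E16.5, was in the sixth place at 10.7 CPM per kb and overlapped Maff at 9.0 CPM per kb. Fosl1 and Fosb were lowest at 1.34 and 0.590 CPM per kb and overlapped. In Kansl1 cKO, Jund led at 84.6 ± 8.24 CPM per kb and Jun followed at 73.9 ± 1.99 CPM per kb, whereas Jun, Junb and Fos overlapped from each to the next.

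**Figure D1:**
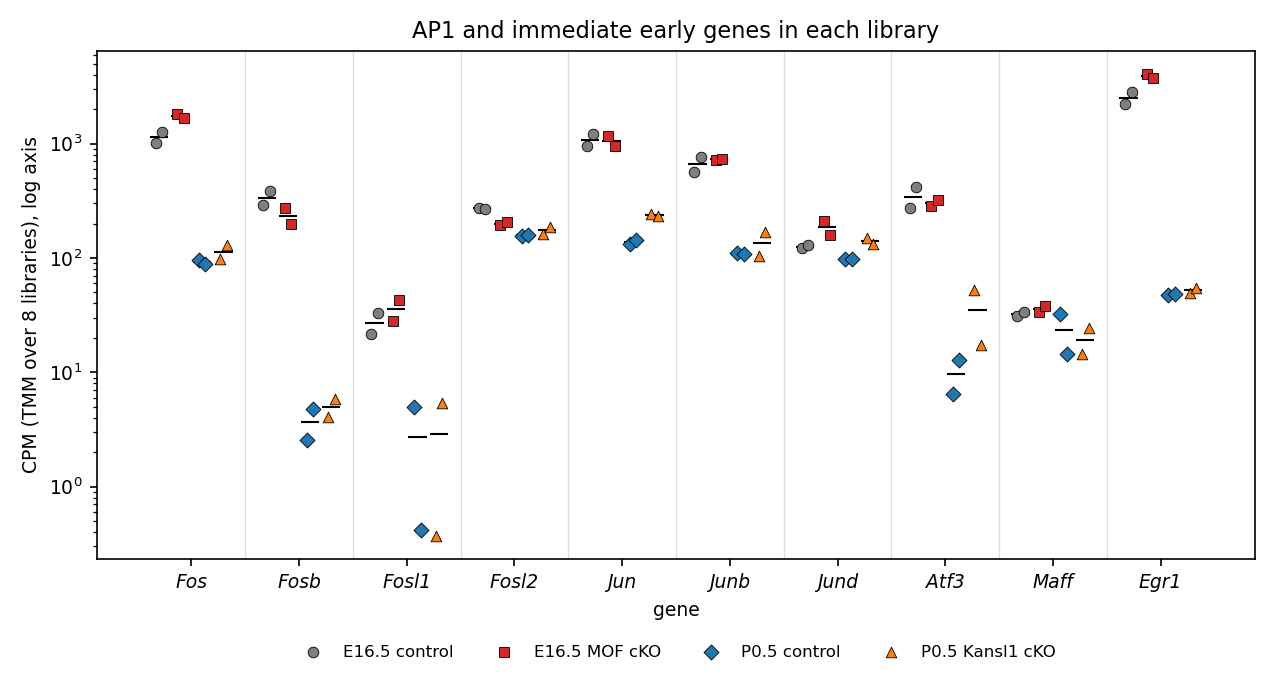
Level of each of the 10 genes in each library, in CPM on a log axis, with 2 libraries per group and a black line at the group mean. Egr1 lies at 2225 to 4076 CPM in the E16.5 libraries and at 47.7 to 54.9 CPM in the P0.5 libraries, whereas Jund stays between 98.0 and 211.6 CPM in all 8.

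The makeup of both families differed between the experiments. Fos made up 83.6% ± 0.121 (SD, n = 2) of Fos family level per kb in E16.5 control and 68.2% ± 0.323 in P0.5 control. Fosl2, known as a Fos family member that lacks a strong transactivation domain, made up 4.88% ± 0.787 and 28.5% ± 1.85, respectively, and Fosb 9.27% ± 0.330 and 1.04% ± 0.496. In the Jun family, Jun made up 48.4% ± 0.105 in E16.5 control and 29.0% ± 1.33 in P0.5 control, and Jund 10.8% ± 1.52 and 39.4% ± 0.661. Each of these shares had libraries that did not overlap between the control groups. With 2 libraries against 2, an exact two-sided permutation test of a share cannot give a p below 0.333, so the shares were not tested.

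**Figure D2:**
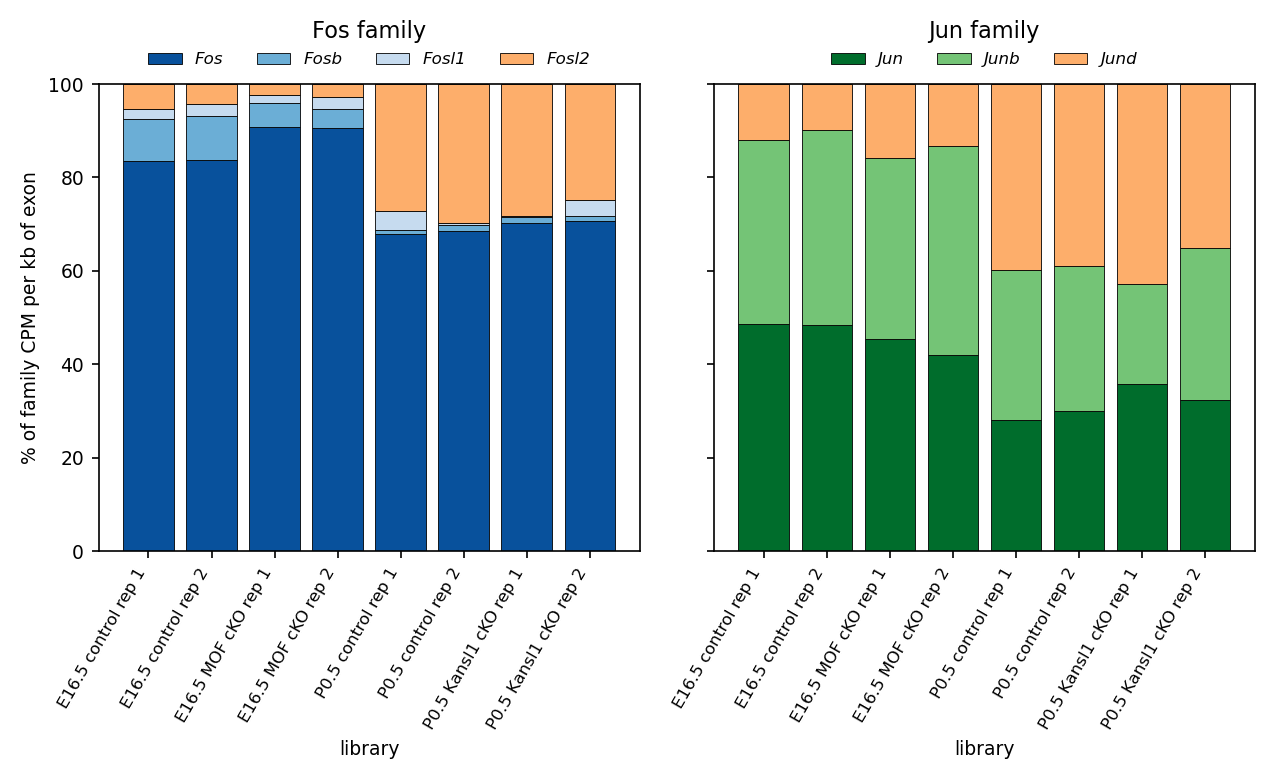
Share of each gene in the level of its family, in percent of the family's summed CPM per kb of exon, for each of the 8 libraries. Fos takes 68.0% to 90.9% of the Fos family in all libraries, and Jund takes 9.77% to 15.8% of the Jun family at E16.5 and 35.2% to 42.9% at P0.5.

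The loss of MOF was compared with control in sorted E16.5 cells. Fos and Egr1 were upregulated in MOF cKO, each just above the fold threshold, and none of the 10 genes was downregulated. A call required a fold above 1.5 and an adjusted p no higher than 0.01. Over all genes, 19.6% were called, 10% upregulated and 9.59% downregulated, so 2 of 10 upregulated and 0 downregulated is close to the background. The median log2 fold change of the 10 genes was 0.14, against -0.02 over the 13956 genes tested.

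Fos, the founding member of its family, had 1016 and 1269 CPM in control and 1813 and 1673 CPM in MOF cKO. Both MOF cKO libraries lay above both control libraries, and the log2 fold change was 0.61 (SE 0.127, adjusted p = 0.00907, edgeR's quasi-likelihood test), or 1.53-fold. Fosb had 292.0 and 382.6 CPM in control and 270.7 and 196.5 CPM in MOF cKO. Its MOF cKO libraries were the lower ones, with a log2 fold change of -0.53 (SE 0.184) that did not pass the test (adjusted p = 0.0558). Fosl2 had 272.3 and 269.8 CPM in control and 192.3 and 204.4 CPM in MOF cKO. These groups did not overlap either, and the log2 fold change of -0.45 (SE 0.100, adjusted p = 0.0112) missed both thresholds. Fosl1, which encodes Fra-1, had 21.5 and 33.0 CPM in control and 28.3 and 43.1 CPM in MOF cKO, and the groups overlapped (log2 fold change 0.39, SE 0.257). The Fos family thus held a positive value for Fos and negative ones for Fosb and Fosl2. In shares of the family, Fos made up 90.8% ± 0.211 in MOF cKO against 83.6% ± 0.121 in control, Fosb 4.56% ± 0.782 against 9.27% ± 0.330, and Fosl2 2.52% ± 0.245 against 4.88% ± 0.787 (SD, n = 2 each), again with no overlap and no test.

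In the Jun family, Jund, which is known to be expressed at a steady level in many resting cells, had 122.0 and 128.8 CPM in control and 211.6 and 159.7 CPM in MOF cKO. Both MOF cKO libraries were higher, but the log2 fold change of 0.56 (SE 0.145, adjusted p = 0.0195) lay just outside the thresholds. Jun had 950.1 and 1220 CPM in control and 1163 and 958.2 CPM in MOF cKO, with a log2 fold change of -0.03 (SE 0.150). Junb, a partner that can oppose Jun at some promoters, had 559.0 and 761.6 CPM in control and 720.1 and 738.4 CPM in MOF cKO, with a log2 fold change of 0.14 (SE 0.148). For both genes the values of the genotypes overlapped.

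Egr1, a zinc finger factor that is induced beside Fos by serum response factor, had 2225 and 2800 CPM in control and 4076 and 3771 CPM in MOF cKO. It had the largest fold of the 10 genes, with a log2 fold change of 0.64 (SE 0.129, adjusted p = 0.00760, edgeR), or 1.56-fold, and no overlap. Atf3, a stress-induced member of the ATF/CREB family, had 270.8 and 415.5 CPM in control and 284.1 and 319.9 CPM in MOF cKO. The control libraries lay on both sides of the MOF cKO libraries (log2 fold change -0.18, SE 0.191). Maff, a small Maf protein that has no transactivation domain, had 31.2 and 33.6 CPM in control and 33.58 and 37.8 CPM in MOF cKO (log2 fold change 0.14, SE 0.133). In all, 4 genes had higher values in both MOF cKO libraries (Fos, Jund, Egr1 and Maff) and 2 lower values (Fosb and Fosl2), while 35% and 37.7% of all genes tested had non-overlapping groups in these directions.

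The Fos call was lost without control replicate 1 (log2 fold change 0.46, adjusted p = 0.0371), without MOF cKO replicate 1 (0.55, adjusted p = 0.0316) or without MOF cKO replicate 2 (0.66, adjusted p = 0.0128), and the Egr1 call without control replicate 1 (0.49, adjusted p = 0.0268) or MOF cKO replicate 1 (0.58, adjusted p = 0.0237), all in edgeR. The Fos call was also lost in 1 fit over all 8 libraries (0.61, adjusted p = 0.0207, edgeR). Jund was called without MOF cKO replicate 2 (0.75, adjusted p = 0.00309) and by DESeq2 (0.59, adjusted p = 0.000736), and Fosb without control replicate 1 (-0.71, adjusted p = 0.00317). Scaling by library size alone moved the median of all genes to -0.32 and the share of upregulated among called genes from 51.0% to 21.9%. Under it Fos (0.30) and Egr1 (0.34) were not called, while Fosb (-0.84) and Fosl2 (-0.76) were called downregulated.

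**Figure D3:**
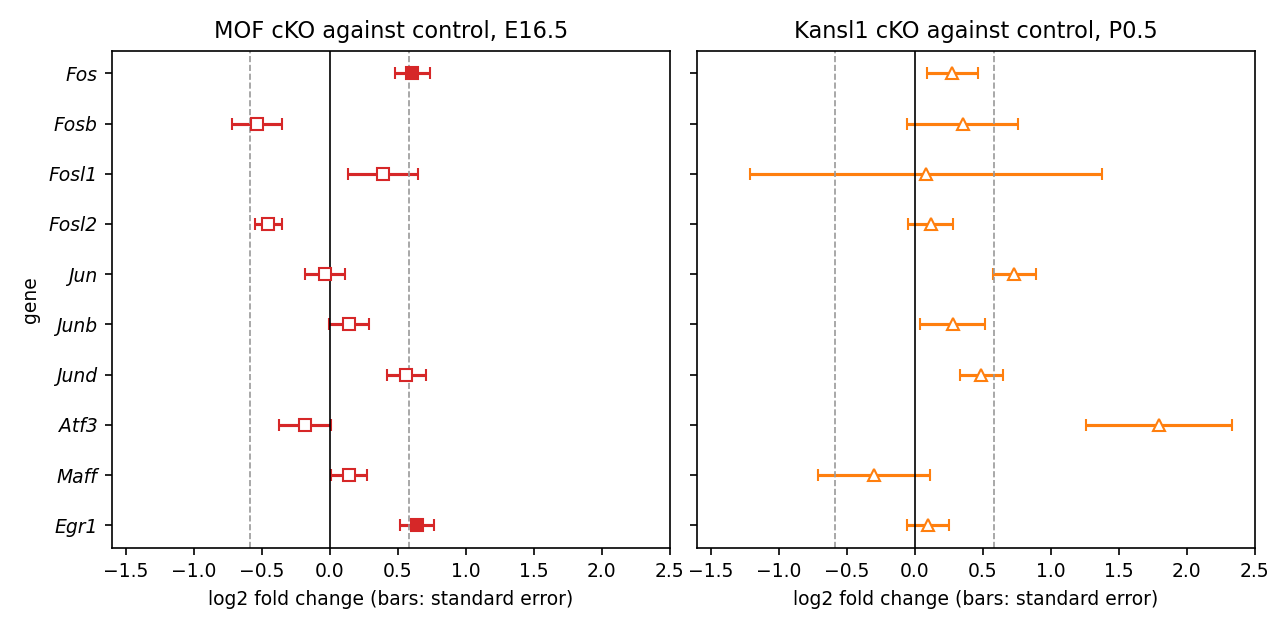
Log2 fold change of each gene in MOF cKO (left, red squares) and Kansl1 cKO (right, orange triangles) against its own control, with bars of 1 standard error, dashed lines at a fold of 1.5 either way and filled points for genes that were called. Fos at 0.61 and Egr1 at 0.64 are the filled points, and Atf3 at 1.79 in Kansl1 cKO is the point farthest from 0.

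Genes around AP1 were described with lists that were chosen with earlier results of these data known. Of 48 other immediate early genes, 12 were upregulated and 5 downregulated in MOF cKO, against 10% and 9.59% of all genes, with a median of 0.33. Ctgf, a matricellular protein gene, was upregulated (log2 fold change 2.66), as was the EGF receptor ligand Areg (2.27), whereas Nr4a3, an orphan nuclear receptor gene, was downregulated (-2.34). The downregulated genes were Nr4a3, Nr4a1, Egr2, Egr3 and Trib1, so 2 paralogs of Egr1 were downregulated in the libraries in which Egr1 was upregulated. Egr2 had a log2 fold change of -1.57 (adjusted p = 0.00139, edgeR) and Egr3 one of -1.79 (adjusted p = 0.00314, edgeR), and these 2 genes were named after their values were seen.

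Of 21 other bZIP factors that passed the filter, 5 were upregulated and 0 downregulated, with a median of 0.55. They included Nfe2l2 (1.13), which encodes NRF2, the regulator of the oxidative stress response, and the small Maf gene Mafg (0.84). Of 30 factors and kinases upstream of AP1, 4 were upregulated and 4 downregulated, near the 10% and 9.59% over all genes. The serum response factor partner Elk3 was upregulated (1.87), as was Mapk11, which encodes a p38 kinase (1.48), and Map2k6, a kinase that activates p38, was downregulated (-1.65). Of 15 feedback inhibitors of MAP kinases, 2 were upregulated, also near the share over all genes. These were the phosphatase genes Dusp8 (1.55) and Dusp7 (1.23).

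Of 29 genes known as AP1 targets in skin or other tissues, 23 were upregulated and 0 downregulated, with a median of 3.37. Krt6b, a keratin of wounded and hyperproliferative epidermis, had 31 and 20 counts in control and 4075 and 9041 counts in MOF cKO (log2 fold change 8.39). Mmp3, a matrix metalloproteinase gene, had 1 count in each control library and 194 and 639 counts in MOF cKO. Mmp10 had 0 counts in both control libraries and 96 and 36 in MOF cKO, at least 59.0-fold higher against a floor of 3 counts over the control group. Mmp10, Mmp3, Mmp13, Il1a and Sprr2d (not called), with 0 to 2 counts in each control library, passed the filter only through their MOF cKO counts. They could only come out higher, so part of the count of upregulated targets and of their median was fixed in advance. The list was compiled from general knowledge of the pathway and holds Krt1 and Krt10, which are also among the epithelial markers, and Hbegf, also among the immediate early genes. The log2 fold changes of the AP1 genes themselves in the same libraries, between -0.53 and 0.64, were far smaller than this median.

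Other values moved with genotype in the same E16.5 libraries, and their part in the results on the 10 genes was not tested. All 19 macrophage markers tested had positive log2 fold changes in MOF cKO, 10 of them called. Among them Ctss, a lysosomal protease gene, had 0.20 to 0.30 CPM in control and 7.92 to 8.82 CPM in MOF cKO, and Ms4a7 was at 0 counts in control. Ms4a7, Tyrobp, C1qa, C1qb and Lyz2, with 0 to 9 counts in each control library, passed the filter only through their MOF cKO counts, as did Ctss. Part of the positive values and of the 10 calls was thus fixed in advance. Markers of this kind could only come out higher. Mast cell markers summed to 13.2 to 14.0 CPM in control and 23.8 to 53.3 CPM in MOF cKO (1 of 5 called), and neutrophil markers to 0.120 to 0.301 and 1.39 to 2.15 CPM (0 of 2 called). The called mast cell marker, Mcpt4, had 5 and 0 counts in control. It and both neutrophil markers tested, Csf3r and Cxcr2, also passed the filter only through MOF cKO and could only come out higher. Fibroblast markers summed to 1879 to 2406 and 2312 to 2744 CPM (0 of 11 called). Of these 11, 8 had positive and 3 negative values, with a median log2 fold change of 1.02. Endothelial markers summed to 15.3 to 18.4 and 17.4 to 32.1 CPM (1 of 8 called), and melanocyte markers to 14.0 to 44.8 and 19.3 to 69.1 CPM (0 of 7 called). T cell markers summed to 48.1 to 65.9 and 27.8 to 41.9 CPM (0 of 2 called), with Cd3d, Cd3g and Cd2 at 0 in all E16.5 libraries. Among epithelial markers, 4 were upregulated and 1 downregulated. Of 18 heat shock and chaperone genes, 7 were upregulated, led by Hspb1 (1.64), Hspb8 (1.15) and Hspe1 (1.07), and their summed level was 7349 to 7800 CPM in control and 10870 CPM in both MOF cKO libraries. In bulk samples, fewer cells of a type and less RNA per cell cannot be told apart.

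The loss of Kansl1 was compared with control in P0.5 epidermis. None of the 10 genes was called, and neither was any of the 13031 genes tested (percent called 0%). The smallest adjusted p over all genes was 0.110, while 2045 genes had an unadjusted p under 0.05 and DESeq2 called 101. Values of the 10 genes were nevertheless mostly positive, 9 of 10, with a median of 0.28 against 0.01 over all genes. Higher values in both Kansl1 cKO libraries were seen for 6 of them (Fos, Fosl2, Jun, Jund, Atf3 and Egr1) and lower values for 0, against 28.8% and 20.6% of all genes.

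Jun, the AP1 subunit that is phosphorylated by JNK, had 133.1 and 144.2 CPM in control and 240.1 and 231.1 CPM in Kansl1 cKO. The spread within each genotype was small, and the log2 fold change was 0.73 (SE 0.158, unadjusted p = 0.00255, adjusted p = 0.196, edgeR). Jund had 98.9 and 98.0 CPM in control and 150.9 and 131.5 CPM in Kansl1 cKO (log2 fold change 0.49, SE 0.158, adjusted p = 0.243, edgeR). Junb had 110.1 and 108.5 CPM in control and 104.2 and 167.1 CPM in Kansl1 cKO, so that the Kansl1 cKO libraries lay on both sides of control (0.28, SE 0.240).

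Atf3 had 6.49 and 12.9 CPM in control and 52.3 and 17.4 CPM in Kansl1 cKO. It had the largest log2 fold change of the 10 genes, 1.79 (SE 0.535, unadjusted p = 0.0127, adjusted p = 0.228, edgeR), and the larger part of it came from Kansl1 cKO replicate 1. Without that library it was 0.77 (adjusted p = 0.546, edgeR), and without control replicate 1 it was 1.42 (adjusted p = 0.430, edgeR). Without Kansl1 cKO replicate 2, a fit that leaves 1 Kansl1 cKO library, the log2 fold change of Atf3 was 2.37. With all libraries, Atf3 was called when every gene with at least 1 count was kept (1.81, adjusted p = 0.000634, edgeR), a setting that called 190 genes.

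Fos had 95.1 and 88.8 CPM in control and 97.8 and 129.8 CPM in Kansl1 cKO (log2 fold change 0.28, SE 0.189, adjusted p = 0.519, edgeR). Egr1 had 47.7 and 48.0 CPM in control and 49.7 and 54.9 CPM in Kansl1 cKO (0.10, SE 0.153). For both genes the lower Kansl1 cKO library lay just above the control libraries. Fosl2 had 156.2 and 159.0 CPM in control and 161.6 and 188.3 CPM in Kansl1 cKO (0.12, SE 0.165), and Fosb had 2.57 and 4.8 against 4.10 and 5.78 CPM (0.35, SE 0.407). Fosl1 had 41 and 6 counts in control and 7 and 62 counts in Kansl1 cKO, or 5.02, 0.417, 0.373 and 5.35 CPM, so it varied more within each genotype than between them (0.08, SE 1.29). Maff showed the same split, with 32.2 and 14.5 CPM in control and 14.3 and 24.3 CPM in Kansl1 cKO (-0.30, SE 0.412).

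No list held a called gene in Kansl1 cKO, and the values that follow did not pass the test. Of 15 feedback inhibitors of MAP kinases, 14 had positive values, with the lowest unadjusted p for Dusp8 (1.66) and Dusp1 (0.66). Among 46 other immediate early genes the median was 0.12, with Cyr61 (0.91) and Rhob (0.56) lowest in p. Among 21 other bZIP factors the median was 0.14, among 30 upstream factors and kinases 0.09, and among 18 heat shock genes 0.20, with Hsp90aa1 at 0.68. The 24 AP1 targets tested had a median of -0.17, the only negative one of these lists. Melanocyte markers had positive values for 7 of 7 genes and summed to 508 to 579 CPM in control and 1132 to 1259 CPM in Kansl1 cKO, and the macrophage marker Ctss had 51.6 to 57.0 and 81.2 to 87.2 CPM. Fibroblast markers had negative values for 9 of 12 genes, with sums of 2042 to 2895 and 1797 to 2150 CPM, and the sums of T cell markers were 15.7 to 27.2 and 28.0 to 30.0 CPM. The part of these cells in the values of the 10 genes was not tested.

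Whether the effects of the 2 deletions differed was tested in a fit over all 8 libraries. The deleted gene, stage, sorting, dissociation, sequencer and experiment all change together in this contrast and cannot be told apart. A difference of effects below is therefore one between the 2 experiments. Of 14565 genes, 2.92% were called, 1.76% with the more positive effect in MOF cKO and 1.17% with the more positive effect in Kansl1 cKO, and 0 of the 10 genes were among them. Jun came closest, with an effect of MOF loss 0.80 lower on the log2 scale than that of Kansl1 loss (difference -0.80, SE 0.223, adjusted p = 0.0452, edgeR). Fosl2 (-0.60, SE 0.179, adjusted p = 0.0541) and Atf3 (-2.01, SE 0.646, adjusted p = 0.0682) followed in the same direction, and Egr1 in the opposite direction (0.52, SE 0.201, adjusted p = 0.118). These 4 genes had an unadjusted p under 0.05, as did 4540 of the 14565 genes tested. The difference for Fos was 0.30 (SE 0.238), which did not pass the test, so the effects on Fos were not shown to differ between the models. The Atf3 difference was -2.58 without Kansl1 cKO replicate 2 and -0.99 without Kansl1 cKO replicate 1, and each of these fits leaves 1 Kansl1 cKO library. Scaling by library size alone moved the median of all differences to -0.29 and the share with the more positive effect in MOF cKO from 60.1% to 47.2%. Among other immediate early genes 2 of 48 were called in each direction, led by Ctgf (2.71), Nr4a1 (-2.68) and Plk2 (1.82). Among upstream genes Map2k6 was called (-2.23), and of 29 AP1 targets 9 were called with the more positive effect in MOF cKO.

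The control groups were compared last, to describe the level of AP1 genes between the experiments. Stage, sorting, dissociation, sequencer and experiment all change together here and cannot be told apart, and the control libraries are those used above. Of the 10 genes, 8 were lower in P0.5 control than in E16.5 control, 0 were higher, and all 10 had negative values, with a median log2 fold change of -3.12 against -0.01 over all genes. Of the 13859 genes tested, 39.7% were called, 17.6% lower and 22.2% higher. In 9 of the 10 genes, all but Maff, both P0.5 libraries lay below both E16.5 libraries, against 45.1% of all genes.

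Fosb differed most, with 2.57 and 4.8 CPM at P0.5 against 292.0 and 382.6 CPM at E16.5, which was 80.8-fold lower (log2 fold change -6.34, SE 0.293, adjusted p = 2.11e-06, edgeR). Egr1 was 48.4-fold lower (-5.60, SE 0.212, adjusted p = 9.19e-07, edgeR). Atf3 was 31.9-fold lower (-4.99, SE 0.344) and Fos 11.4-fold lower (-3.52, SE 0.190, adjusted p = 4.52e-06, edgeR). Jun was 7.21-fold lower (-2.85, SE 0.188) and Junb 5.57-fold lower (-2.48, SE 0.195). Fosl1 was 10.5-fold lower (-3.39, SE 0.737, adjusted p = 0.00511, edgeR), a call that was lost in DESeq2 (-3.16, adjusted p = 0.0525) and in a fit over all 8 libraries (-3.52, adjusted p = 0.0132). It rested unevenly on the P0.5 libraries, with -5.90 without P0.5 control replicate 1 and -2.31 without P0.5 control replicate 2, both called. Atf3 was at -5.59 without P0.5 control replicate 2, also called.

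The other 3 genes had smaller differences. Fosl2 was 1.58-fold lower (-0.66, SE 0.142, adjusted p = 0.00467, edgeR), a call lost without E16.5 control replicate 1 (-0.65, adjusted p = 0.0444) or replicate 2 (-0.68, adjusted p = 0.0304). Jund (-0.23, SE 0.134, adjusted p = 0.170) and Maff (-0.37, SE 0.329, adjusted p = 0.363) were not called in edgeR. Maff was called lower without P0.5 control replicate 1 (-1.04, adjusted p = 0.00280) and had a positive value without replicate 2 (0.12). Scaling by library size alone moved the median of all genes to -0.47 and the share of higher calls from 55.8% to 32.5%, and Jund was then called lower (-0.69).

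Many other immediate early genes were lower beside them. Of 48, 23 were lower and 7 higher in P0.5 control, against 17.6% and 22.2% of all genes, with a median of -0.72. Egr4 had 67 and 78 counts at E16.5 and 0 in both P0.5 control libraries, at least 17.2-fold lower against a floor of 3 counts over the group. It was tested only through its E16.5 counts, so it could only come out lower. The orphan receptor gene Nr4a1 was 70.5-fold lower (-6.14). Ereg, an EGF receptor ligand gene, was higher (7.43). Of 15 feedback inhibitors of MAP kinases 8 were lower and 0 higher, led by Spry4 (-2.59), Spred3 (-1.88) and Dusp1 (-1.85). Dusp1, Dusp2 and Dusp5 are in both lists. Among upstream factors and kinases, 5 were higher and 7 lower of 30, including the serum response factor gene Srf (-2.07), Mapk11 (-1.95) and the JNK kinase gene Map2k4 (2.25).

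Of the AP1 targets most were higher, with 16 higher and 1 lower of 26 and a median of 3.51. Ivl, which encodes the cornified envelope protein involucrin, had 11 and 20 counts at E16.5 and 7351 and 7646 counts at P0.5. Sprr2d, another envelope gene, had 2 and 1 counts at E16.5 and 776 and 452 counts at P0.5, and Il1a, an interleukin gene, had 2 and 0 against 381 and 463 counts. Sprr2d and Il1a passed the filter only through their P0.5 counts, so they could only come out higher. Of 18 heat shock and chaperone genes, 4 were higher and 9 lower, with Hspb1 at 3.37, Hsph1 at -2.42 and Hsf1 at -1.58. Of 22 other bZIP factors, 4 were higher and 3 lower. They included Nfe2l3 (5.05), Cebpb (2.25) and Nfe2, which had 0 counts at E16.5 and 12 and 25 counts at P0.5, at least 34.6-fold higher against the same floor. Nfe2 was tested only through its P0.5 counts, so it could only come out higher.

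Cell markers also differed between the control groups. Macrophage markers were higher for 17 of 19 genes and melanocyte markers for 7 of 7. Among the macrophage markers Ms4a7, Tyrobp, C1qa, C1qb and Lyz2, with 0 to 9 counts in each E16.5 control library, were tested only through their P0.5 counts, as was Ctss. The same holds for the melanocyte marker Mlana, with 5 and 7 counts in E16.5 control. These genes could only come out higher, so part of both counts was fixed in advance. Slc45a2, another melanocyte marker, had 7 and 28 counts there and passed the filter only with its P0.5 counts. Of 5 T cell markers tested, 3 were higher and 2 lower. The 3 higher ones were Cd3g, Cd3d and Cd247. Cd3g had 0 counts in both E16.5 control libraries and 35 and 40 in P0.5 control. Cd3d also had 0 counts in both E16.5 control libraries, and Cd247 had 2 and 0. All 3 were tested only through their P0.5 counts, so they could only come out higher. The summed level of T cell markers was 48.1 to 65.9 CPM in E16.5 control and 15.7 to 27.2 CPM in P0.5 control. Thy1 held most of it, at 38.7 to 54.3 and 5.49 to 15.9 CPM. Neutrophil markers summed to 0.120 to 0.301 and 1.53 to 4.77 CPM. Epithelial markers were higher for 3 and lower for 3 of 14, with Krt1 (4.59) and Krt10 (3.87), keratins of differentiated layers, among the higher ones. For fibroblast markers 1 was higher and 1 lower of 12, for endothelial markers 1 of 6 was lower, and for mast cell markers 0 of 4 were called. The part of cell composition in the lower AP1 levels was not tested.

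**Figure D4:**
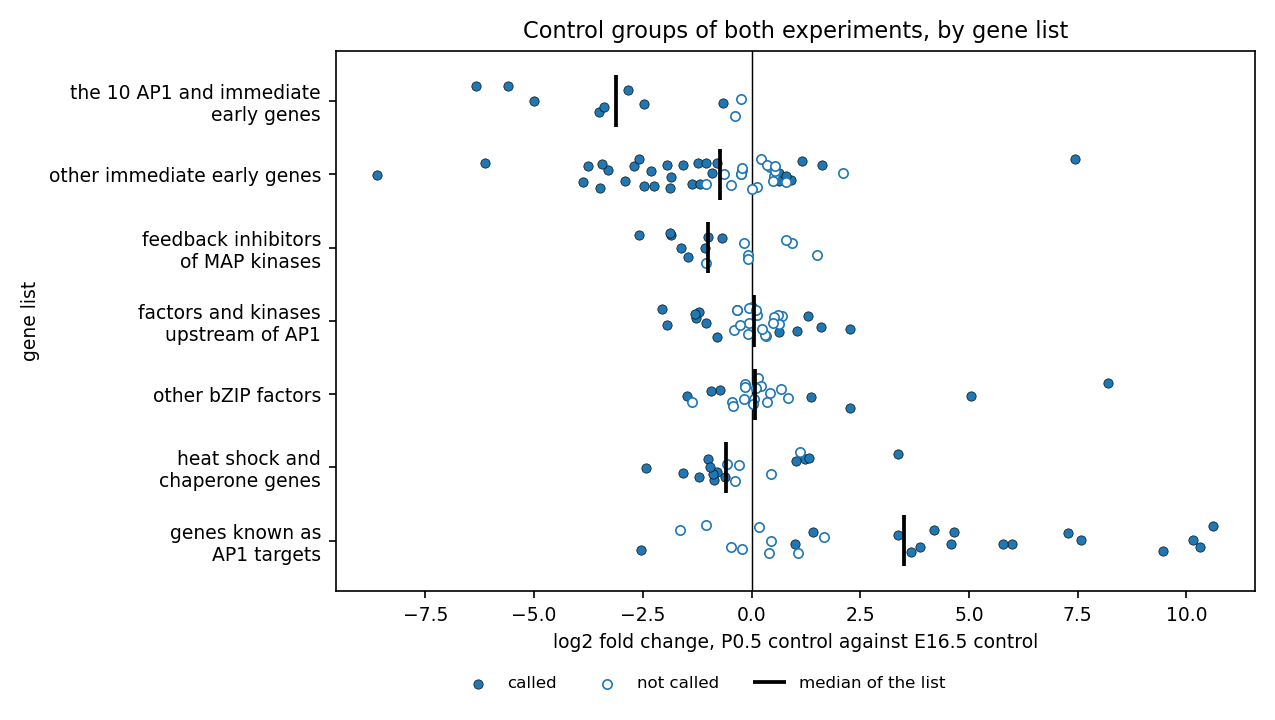
Log2 fold change of P0.5 control against E16.5 control for every tested gene of 7 lists, with filled points for called genes, open points for others and a black line at the median of each list. The 10 AP1 and immediate early genes all lie below 0 with a median of -3.12, whereas the median of the AP1 targets is 3.51.

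Over all 8 libraries, the genes whose level was most like that of Fos were found by Pearson's r of log2 CPM among 12761 genes with a mean of at least 1 CPM. They were Clns1a (0.998), Egr1 (0.998), Zfp36 (0.997), Ppp1r12b (0.996) and Icam1 (0.996). Zfp36 encodes a protein that binds AU-rich elements and speeds the decay of mRNAs that hold them, and its levels were 441.7 and 601.5 CPM in E16.5 control, 696.9 and 624.0 CPM in MOF cKO, 47.4 and 38.3 CPM in P0.5 control and 36.8 and 57.9 CPM in Kansl1 cKO. Icam1, an adhesion receptor gene, had 296.7 and 433.3, 605.8 and 650.8, 25.0 and 30.5, and 38.8 and 42.0 CPM in the same groups. Clns1a, which encodes a chaperone of splicing factors, spanned a narrow range of 57.0 to 116.3 CPM, so a high r did not require a large change. Of the other AP1 genes, Junb was at the thirteenth place (0.993), and Fosb at place 157 (0.981), Jun at 212 (0.977), Atf3 at 1213 (0.932) and Fosl1 at 1977 (0.886). Fosl2 (0.754), Maff (0.748) and Jund (0.620) were farthest from Fos. The 8 points fall into the 2 experiments, so these values mainly order genes by how their level differs between them, and they are given without a test.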

How the data were processed

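The authors aligned paired reads to mm10 (HISAT2 in the methods, TopHat2 in the submitters' processing notes) and deposited the counts of reads per gene from HTSeq, without normalization. The annotation and strand setting of the counting are not given in the sources used here. Entries that name no gene held 21.1% to 26.0% of reads and were left out. These were tested with edgeR 4.0.16 in R 4.3.3, using filterByExpr, TMM factors, the quasi-likelihood test and Benjamini-Hochberg adjustment over all genes tested, with calls at adjusted p ≤ 0.01 and above 1.5-fold as in the study's methods. Each experiment was fitted alone, and the difference of effects over all 8 libraries. SE was the log2 fold change divided by the square root of F. CPM used TMM over all 8 libraries, and levels per kb the exon length in GENCODE M21, which matched 92.8% of symbols. Alternatives were DESeq2 1.42.0, other scalings, no filter, an adjusted p of 0.05, a fit over all libraries, the replicate block and leaving out each library. The test was checked on simulated counts. With 2 libraries per group, their number limits the precision. The 10 genes, the lists and the rule for naming genes (the 3 largest called changes of a list, or the 2 lowest p where none was called) were chosen with earlier results of these data known. Replicates differed by more than sampling noise, with a chi-square of 23.7 to 44.4 per degree of freedom. For many genes that the rule selects, no values are given here, among them cell markers such as Krt15 and Lyz2 in MOF cKO. The named genes are therefore not all that the rule selects. Single-cell and chromatin data were not analysed here.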

Additional observations from a re-analysis of the deposited data

How the results depend on the processing

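Of 470 recomputed values of the 10 genes, 422 kept direction and side of the threshold, 12 lost the call, 12 gained it and 24 changed sign. The sign changes belonged to genes that were not called. With all libraries they were Junb (-0.16) and Maff (-0.16) in MOF cKO and Jund (-0.19) in the difference of effects by library size alone, and Fosl1 in Kansl1 cKO with the replicate block (-0.072) or a crossed pairing chosen after seeing the data (-0.013). On leaving out each library in turn, values ranged in MOF cKO from -0.20 to 0.15 for Jun, -0.062 to 0.38 for Junb and -0.46 to 0.15 for Atf3, where Jun also reached 0.098. In Kansl1 cKO they ranged from -2.80 to 2.65 for Fosl1 (-0.97 without control replicate 2), -0.82 to 0.37 for Maff (0.0084 without Kansl1 cKO replicate 1) and -0.10 to 0.55 for Junb. In the difference of effects they ranged from -2.22 to 3.02 for Fosl1, -0.48 to 0.22 for Junb, -0.26 to 0.88 for Maff and -0.18 to 0.37 for Jund, and between controls from -1.04 to 0.12 for Maff. The count of all genes called in MOF cKO was 2733, with 4239 at an adjusted p of 0.05, 4166 with the replicate block and 2465 to 2635 on leaving out a library. Members called upregulated there were 2, with 0 by library size alone, 1 (Egr1) over all 8 libraries and 0 to 2 on leaving out a library, and members called downregulated were 0, with 2 by library size alone and 0 to 1 on leaving out a library. In Kansl1 cKO 0 genes were called, with 101 by DESeq2, 1 by library size alone, 190 with every gene of at least 1 count, 1 with the crossed pairing and 5 to 273 on leaving out a library. Atf3 was the 1 member called there, with every gene of at least 1 count and without Kansl1 cKO replicate 2 (0 to 1 on leaving out a library). The difference of effects gave 426 genes, with 1496 by DESeq2, 1651 with every gene of at least 1 count, 2011 at an adjusted p of 0.05, 1 with the replicate block and 81 to 423 on leaving out a library, and 1 member, Atf3 with every gene of at least 1 count or Jun at an adjusted p of 0.05, with 0 to 1 on leaving out a library. Between controls 5506 genes were called, with 4633 to 5360 on leaving out a library, and 7 to 9 of the 10 genes. The cause of these shifts was not tested. Leaving out a library leaves a group with 1, which was assumed to vary like the others. Controls were littermates, but whether libraries of the same number share a litter is not given in the sources used here. Their deviations correlated at 0.21 in E16.5 and -0.18 in P0.5, and the replicate block changed no call of a member. Fosl1 at P0.5, with 6 to 62 counts, is limited by the spread between libraries.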

Other observations

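In P0.5 epidermis, Fosl1 and Maff were not alone in dividing the libraries across genotype. Control replicate 1 and Kansl1 cKO replicate 2 were the higher libraries, and control replicate 2 and Kansl1 cKO replicate 1 the lower ones, for several genes of the lists used here, which were picked after their values were seen. Areg had 7.34 and 0.974 CPM in control and 1.92 and 5.44 CPM in Kansl1 cKO. Sprr2d had 95.0 and 31.4 CPM in control and 12.6 and 68.3 CPM in Kansl1 cKO. Krt6a had 49.4 and 8.56 CPM in control and 9.11 and 21.9 CPM in Kansl1 cKO, and Hspb1 had 611.3 and 353.4 CPM in control and 244.3 and 554.7 CPM in Kansl1 cKO. Junb divided the libraries in the same way by a small margin, with 110.1 and 108.5 CPM in control and 104.2 and 167.1 CPM in Kansl1 cKO, and Jun and Jund did not. The labels name no batch that divides the libraries in this way.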
